A study of Mus musculus with 2 samples.

Results

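The strongest autosomal boundaries of a contact map of mouse olfactory sensory neurons were selected on the deposited strength, as the boundaries of chromosomes 1 to 19 with a value of 1.8 or more. They were 368 of 6994 autosomal boundaries (5.26%), in a list of 7367 that also covers the X chromosome. Their strengths and everything else read from the same map are therefore given as description, with no test. In situ Hi-C was done on mature neurons expressing 1 odorant receptor, Olfr1507, which were sorted for GFP from a MOR28-GFP allele. The donors were 129P2/OlaHsd adults, both sexes together, and the tissue was olfactory epithelium. Replicates of 170000 and 220000 cells, fixed in 1% formaldehyde and cut with DpnII, made up the single group of 2, and no treatment was listed. The authors combined both replicates before they called boundaries, which leaves no replicate error for any value, and the depth behind a boundary is unknown. The sorted cell type could not be checked against marker genes, since the list holds no expression values.

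A boundary is a short stretch of DNA across which few chromatin contacts pass, so that it separates neighbouring domains. In mammals many boundaries are places where cohesin, which extrudes loops of chromatin, is halted by the DNA-binding protein CTCF, whose asymmetric motif sets the direction in which it halts cohesin. Other boundaries lie at promoters of active genes or between stretches of active and inactive chromatin.

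The motif and promoter sequences at the strongest boundaries are shown first, since the comparisons below rest on where CTCF cores and start sites lie. Each of the following is the CTCF core match nearest the midpoint of 1 of the 10 strongest boundaries that hold a match within 10 kb, with 10 bases on either side, in GRCm38, read 5′ to 3′ on the strand given. The capitals mark the core match, and each boundary is named by its nearest protein-coding transcription start site (TSS).
Gm527 boundary, chr12:64897529-64897560, reverse strand: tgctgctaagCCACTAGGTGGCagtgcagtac
Speer4e boundary, chr5:14952247-14952278, forward strand: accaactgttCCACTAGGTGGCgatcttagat
Plcg2 boundary, chr8:117475131-117475162, reverse strand: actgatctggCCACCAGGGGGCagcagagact
Gm6793 boundary, chr8:112046071-112046102, forward strand: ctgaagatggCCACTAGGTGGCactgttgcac
Asb5 boundary, chr8:54491263-54491294, reverse strand: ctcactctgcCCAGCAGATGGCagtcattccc
Vmn1r40 boundary, chr6:89680365-89680396, forward strand: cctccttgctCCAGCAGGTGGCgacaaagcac
Aptx boundary, chr4:40680603-40680634, forward strand: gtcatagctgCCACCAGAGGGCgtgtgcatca
Rpl38 boundary, chr11:114657918-114657949, reverse strand: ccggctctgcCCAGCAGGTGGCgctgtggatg
Tmem121 boundary, chr12:113220043-113220074, forward strand: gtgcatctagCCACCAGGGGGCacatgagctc
Megf9 boundary, chr4:70621529-70621560, reverse strand: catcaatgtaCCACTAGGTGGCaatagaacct
Of these 10 matches, 5 pointed away from the boundary midpoint (Gm527, Plcg2, Aptx, Tmem121 and Megf9) and 5 pointed toward it. The Speer4e boundary lies in repeated sequence, where 17.0% of 32-base words within 50 kb were unique in the genome.

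Promoters are shown for the 6 strongest boundaries with a RefSeq coding start within 2.5 kb of the midpoint, since there a start site and a high score lie together. The sequences come from RefSeq on GRCm38.p6 and run from 250 bases before to 50 bases after the start, on the strand given. Capitals mark 3 promoter motifs found on either strand. The first is the GC box, with the letters GGGCGG. Another is the motif CCAAT, bound by the factor NF-Y. The last is the element TATAAA, which lies upstream of some start sites.
Trpm8 promoter, chr1:88306485-88306784, forward strand: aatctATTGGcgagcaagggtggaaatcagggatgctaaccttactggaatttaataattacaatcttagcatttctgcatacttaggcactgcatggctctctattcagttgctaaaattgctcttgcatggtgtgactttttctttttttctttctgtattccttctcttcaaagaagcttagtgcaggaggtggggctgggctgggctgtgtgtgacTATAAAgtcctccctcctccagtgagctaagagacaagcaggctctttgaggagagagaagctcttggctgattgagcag
Eif1 promoter, chr11:100319699-100319998, forward strand: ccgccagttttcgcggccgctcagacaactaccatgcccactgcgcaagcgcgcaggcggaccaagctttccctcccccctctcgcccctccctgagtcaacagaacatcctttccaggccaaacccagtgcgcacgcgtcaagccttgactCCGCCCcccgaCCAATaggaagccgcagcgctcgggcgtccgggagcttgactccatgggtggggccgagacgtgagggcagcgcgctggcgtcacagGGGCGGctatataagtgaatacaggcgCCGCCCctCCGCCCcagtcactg
Trrap promoter, chr5:144768544-144768843, forward strand: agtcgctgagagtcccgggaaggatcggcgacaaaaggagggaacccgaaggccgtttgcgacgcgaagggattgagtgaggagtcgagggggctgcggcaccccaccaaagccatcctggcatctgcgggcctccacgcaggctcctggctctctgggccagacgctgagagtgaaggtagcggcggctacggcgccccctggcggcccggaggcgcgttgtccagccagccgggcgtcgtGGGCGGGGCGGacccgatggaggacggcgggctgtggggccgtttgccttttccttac
Bcl6 promoter, chr16:23988803-23989102, reverse strand: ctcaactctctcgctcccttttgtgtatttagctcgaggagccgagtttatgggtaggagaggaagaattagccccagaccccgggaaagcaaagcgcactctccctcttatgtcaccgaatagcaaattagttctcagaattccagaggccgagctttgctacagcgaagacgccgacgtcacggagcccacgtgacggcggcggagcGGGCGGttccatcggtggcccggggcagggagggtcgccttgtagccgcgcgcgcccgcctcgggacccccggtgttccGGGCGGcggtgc
Cyp2f2 promoter, chr7:27119705-27120004, forward strand: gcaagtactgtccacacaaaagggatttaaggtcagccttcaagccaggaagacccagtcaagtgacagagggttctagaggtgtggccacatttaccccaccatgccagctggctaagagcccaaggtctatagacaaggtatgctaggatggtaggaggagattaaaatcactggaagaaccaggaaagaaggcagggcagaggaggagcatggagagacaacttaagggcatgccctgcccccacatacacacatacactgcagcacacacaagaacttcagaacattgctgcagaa
Pum3 promoter, chr19:27429859-27430158, reverse strand: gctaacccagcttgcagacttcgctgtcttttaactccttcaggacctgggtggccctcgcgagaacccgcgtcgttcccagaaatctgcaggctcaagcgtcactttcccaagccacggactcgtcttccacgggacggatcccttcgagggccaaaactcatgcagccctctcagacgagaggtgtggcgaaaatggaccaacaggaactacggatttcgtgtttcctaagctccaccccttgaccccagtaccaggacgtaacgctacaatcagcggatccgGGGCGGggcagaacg
Trpm8 encodes a cold-sensing ion channel, Eif1 a factor that helps the ribosome select start codons, and Trrap a scaffold of histone acetyltransferase complexes. Bcl6 encodes a transcriptional repressor, Cyp2f2 a cytochrome P450 and Pum3 an RNA-binding protein with Pumilio repeats. The Eif1 promoter had 28 CpGs and 66.3% GC, those of Trrap and Bcl6 had 31 CpGs each at 69.0% and 62.7% GC, and that of Pum3 22 CpGs and 58.0% GC. The Trpm8 promoter had 1 CpG and 44.3% GC, and the Cyp2f2 promoter had 0 CpGs and none of the motifs searched. The RefSeq start of Trpm8 lies 0.765 kb from the midpoint, whereas the GENCODE gene model used for all counts starts 29.8 kb away, so this boundary was not counted as holding a coding TSS.

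Across the 146 RefSeq promoters matched to genes in the windows of the strongest boundaries, motif content was set beside the 2375 at other boundaries and the 19174 of all genes in the table. A GC box was present in 57.5%, against 55.7% at other boundaries and 48.3% of all promoters. The ETS motif CCGGAAG was present in 20.5%, against 17.8% and 12.1%. CCAAT was found in 28.1% at the strongest boundaries, 36.1% at other boundaries and 37.5% of all promoters, and TATAAA in 8.22%, 8.80% and 12.1%. The cyclic AMP response element TGACGTCA was found in 1.37%, 3.16% and 2.36%. Motifs were searched on both strands, and a match is a description of the sequence only.

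The strongest scores ran from 1.8 to 4.26, with a median of 2.08, against 0.543 at the other 6626 autosomal boundaries. The highest score, 4.26, lay inside Trpm8 on chromosome 1. Next came a boundary of 3.81 beside Sfi1, which encodes a centrosome protein, and Eif4enif1, whose product carries the cap-binding protein eIF4E into the nucleus. That boundary lies 97.5 kb from an assembly gap. A score of 3.29 lay at Pdcl, a phosducin-like regulator of G protein subunits, and 3.10 at Eif1. Just inside the threshold were boundaries nearest Tac4 (1.801), Reck (1.802) and Rbm45 (1.805), and just outside it boundaries nearest Plcb4 (1.7999), Uts2r (1.799) and Sardh (1.798). The members were spread over all 19 autosomes, with 0.150 ± 0.0204 per Mb (SD over 19 autosomes). Chromosome 7 had the most per Mb (0.186) and chromosome 16 the fewest (0.112).

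For features of genes and sequence, which strength did not use, differences are the share at the strongest boundaries minus that at the other autosomal boundaries, in percentage points, with 95% Newcombe intervals. They cover counting error only, since boundaries are no biological replicates and neighbours depend on one another. Of 23 such shares compared, 13 had an interval that left out 0, with no adjustment for their number. The window of a boundary, used for these counts, is its interval of 5000 bp with 10 kb added at each end.

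The windows of 130 strongest boundaries (35.3%) and 1944 other boundaries (29.3%) held a protein-coding TSS, against 29.7% of all autosomal boundaries. The difference was 5.99 points (1.15 to 11.1), and the share was higher at the strongest boundaries on 12 of 19 autosomes. It did not hold against the other boundaries of the authors' strong class, which had 34.2% (difference 1.11, -3.86 to 6.35). Without the added 10 kb, the direction turned, with 23 strongest boundaries (6.25%) and 9.28% of the others holding a coding TSS in the interval itself (difference -3.03, -5.21 to -0.00192). Relative to the other boundaries, coding start sites were thus less frequent in the interval itself and more frequent in the wider window. Within 25 kb of the midpoint a coding TSS lay at 57.6% of the strongest and 43.5% of the other boundaries, a difference of 14.1 points (8.90 to 19.2). Within 100 kb the shares were 92.1% and 72.8%, and the median distance to the nearest coding TSS was 19.6 kb, against 33 kb at the others. Against the other strong boundaries these differences were 6.12 points (0.755 to 11.3) at 25 kb and 8.83 points (5.41 to 11.5) at 100 kb.

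The density of coding start sites was also taken in steps of distance, which are wider than the boundary interval. Within 10 kb of the midpoint there were 18.6 coding TSSs per Mb at the strongest boundaries and 16.6 at the others, and between 10 and 50 kb there were 14.0 and 11.7. Between 200 and 500 kb the densities were 11.0 and 10.6 per Mb. Genes near the strongest boundaries also faced away from them more often, in a comparison outside those planned. Of 137 coding TSSs within 10 kb, 89 were transcribed away from the midpoint (65.0%), against 54.7% at the other boundaries (difference 10.2 points, 1.68 to 18). From 10 to 50 kb the shares were 58.2% and 54.4% (difference 3.74, -1.25 to 8.57), and from 50 to 100 kb 50.7% and 49.6%. Start sites that share a boundary were counted singly, and direction was not compared with the other strong boundaries.

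**Figure D1:**
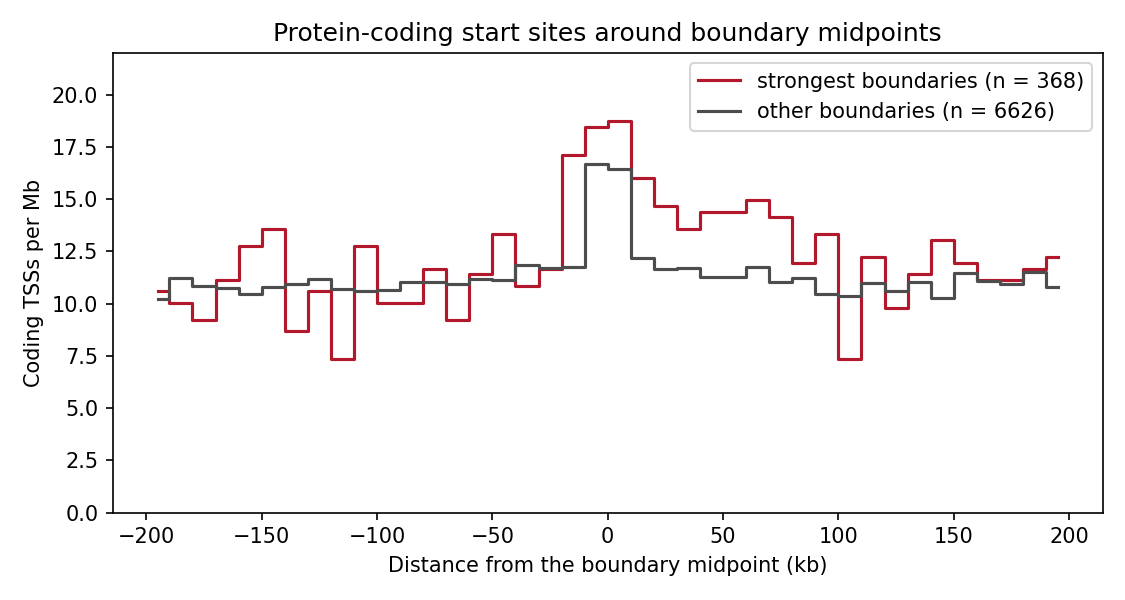
Protein-coding start sites per Mb (vertical axis) by distance from the boundary midpoint in kb (horizontal axis, steps of 10 kb), for the 368 strongest boundaries (red) and the 6626 other autosomal boundaries (grey). Within 10 kb the strongest boundaries averaged 18.6 start sites per Mb and the others 16.6.

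The start sites at the strongest boundaries included few divergent pairs, in which neighbouring genes start back to back within 2 kb. Such pairs lay at 5 strongest boundaries (1.36%) and 149 others (2.25%), against 2.2% of all autosomal boundaries (difference -0.890, -1.76 to 0.922). The interval includes 0, and a difference could not be shown with this number of boundaries. At a boundary of strength 2.23 on chromosome 14, Polr3a, the largest subunit of RNA polymerase III, and Rps24, a protein of the small ribosomal subunit, start 67 bp apart. The boundary was flanked by intervals of 185 and 455 kb. Mepce, which caps 7SK RNA, and Zcwpw1, a histone methylation reader of meiosis, start 143 bp apart at a boundary of 2.05. Ptcd2 and Mrps27, both tied to mitochondrial RNA or translation, start 81 bp apart at 1.93. Cfap57, a cilia protein gene, and Ebna1bp2, which acts in ribosome assembly, start 22 bp apart at 2.04. The histone genes Hist1h3a and Hist1h1a start 1280 bp apart at 1.96.

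Any annotated gene started in the window of 195 strongest boundaries (53.0%) and 46.3% of the others, against 46.7% of all (difference 6.67, 1.43 to 11.9). Against the other strong boundaries, at 51.4%, the difference was 1.58 (-3.78 to 6.88). A start of a long noncoding RNA without a coding one was found at 16 (4.35%) and 5.96%, against 5.88% of all (difference -1.61, -3.37 to 1.04). Several coding starts lay in 32 windows of the strongest boundaries (8.70%) and 7.56% of the others, against 7.62% of all (difference 1.14, -1.42 to 4.51).

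Gene bodies were covered less often by the strongest boundaries, in a comparison added after the data were seen. The midpoint lay inside a protein-coding gene at 107 of the strongest boundaries (29.1%) and 2752 of the others (41.5%), against 40.9% of all, a difference of -12.5 points (-17.0 to -7.48) that had the same direction on 18 of 19 autosomes. The other strong boundaries stood at 44.8%, further from the strongest ones (difference -15.7, -20.4 to -10.6). Midpoints inside a gene of 100 kb or more, with no coding TSS in the window, made up 30 of the strongest (8.15%) and 16.6% of the others, against 16.2% of all (difference -8.49, -11.1 to -5.13). Dlg2, which encodes a synaptic scaffold protein, holds 1 of them on chromosome 7, at a strength of 3.0 and 474 kb from the nearest coding TSS. The strongest boundaries were at the same time seldom far from genes. No coding gene lay within 100 kb of 6 of them (1.63%) and of 1014 others (15.3%), against 14.6% of all, and the share was lower on 19 of 19 autosomes (difference -13.7, -14.9 to -11.6). The other strong boundaries had 6.85%, which left a difference of -5.22 (-6.46 to -3.18). The 6 exceptions, listed after their values were seen, were nearest the start sites of Cobl, Rapgef2, Kcnmb2, Gdi2, Ipo5 and Cdh6, at 113 to 739 kb.

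**Figure D2:**
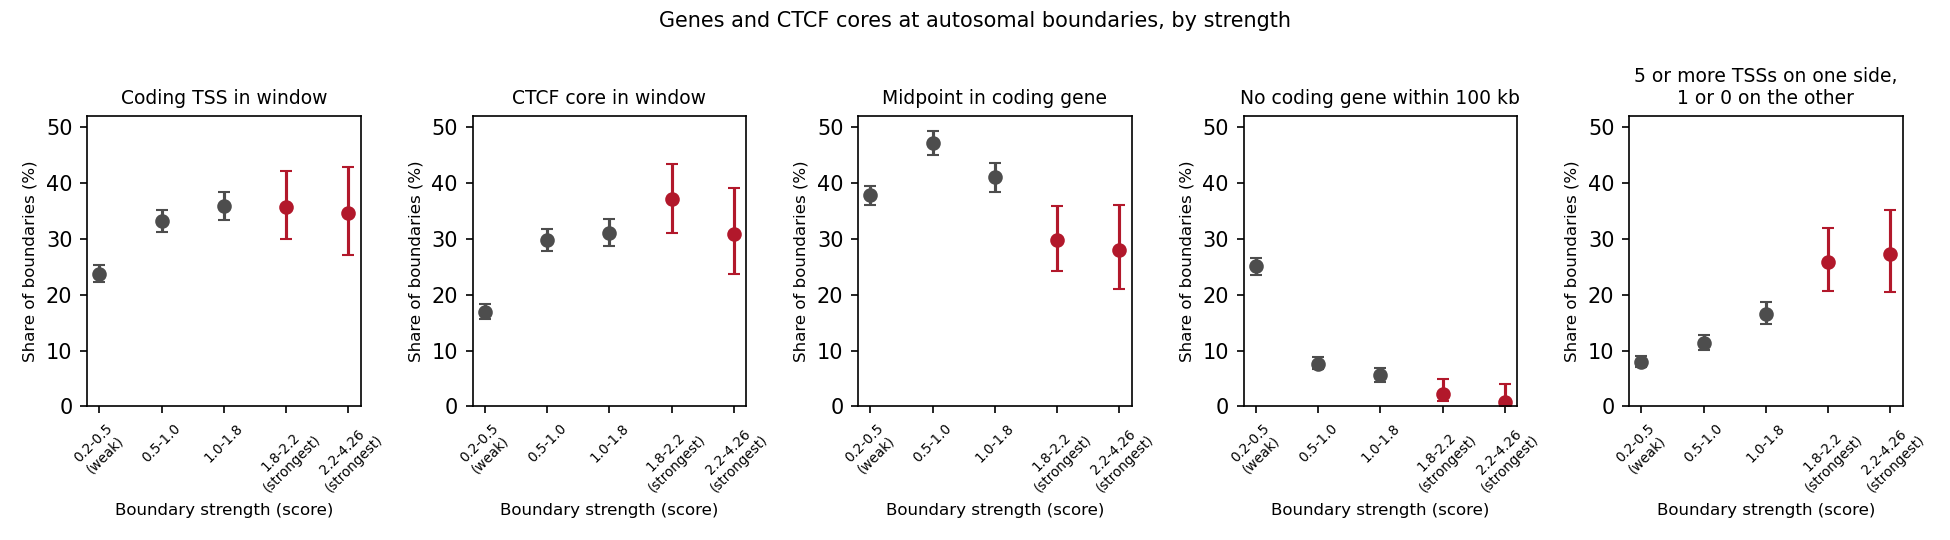
Share of autosomal boundaries in percent (vertical axes) with a coding start site or CTCF core in the window, with the midpoint in a coding gene, with no coding gene within 100 kb, or with strongly unequal flanks, in 5 ranges of strength (horizontal axes; n = 3078, 2177, 1371, 232 and 136 from low to high). Points are shares and bars 95% Wilson intervals; the shares in genes were 37.8%, 47.1%, 41.0%, 29.7% and 27.9%.

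The course over strength differed between these features. Coding TSSs were found at 23.7% of boundaries below 0.5, 33.2% up to 1.0, 35.9% up to 1.8, 35.8% up to 2.2 and 34.6% above that. From 1.0 upward the share was about level. The share inside genes was highest at 47.1% between 0.5 and 1.0. The share with strongly unequal flanks, described below, was 7.96%, 11.3%, 16.6%, 25.9% and 27.2% over the same ranges.

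Of 20807 protein-coding autosomal genes, 167 started at a strongest boundary (0.803%), and 2577 (12.4%) at another boundary. Gene classes were set beside that background, with no test, and most hold few members. Among genes for protein synthesis and turnover, 3 of 80 cytosolic ribosomal protein genes started there: Rps23 at a strength of 2.83, Rps24 at 2.23 and Rps3 at 1.96. The Rps3 boundary was among those with the shortest flanks, 135 and 125 kb. Of 39 proteasome subunit genes, 3 did: Psmd6 (2.57), Psmd7 (2.41) and Psmc1 (2.28). Of 68 genes classed by symbol as translation factors, 3 did: Eif4enif1 (3.81), Eif1 (3.10) and Eef1b2 (2.02). Eif4enif1 is in the class by its symbol only, since its product is the carrier of eIF4E described above. Eef1b2, an elongation factor subunit, shares its boundary with Ndufs1, a subunit of respiratory complex I, and that boundary had intervals of 190 kb on both sides. Of 92 respiratory chain and ATP synthase gene models, 3 did, of which 2 are models of Atp5o at 1 boundary. These classes were frequent at the other boundaries too. There started 24 of the 80 ribosomal protein genes and 11 of the 39 proteasome genes. So did 19 of the 68 genes classed as translation factors and 21 of the 92 respiratory chain models. Each of these shares was above the 12.4% of all coding genes, so the classes were not particular to the strongest boundaries.

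Counts at the strongest boundaries in other housekeeping classes and among histone genes were also small. Mrps27 was the only 1 of 79 mitochondrial ribosomal genes, Sf3b5, a splicing factor subunit, 1 of 78 spliceosome genes, and Polr3a 1 of 56 RNA polymerase and Mediator genes. Cct8 and Dnajb12 were 2 of 83 chaperones. At other boundaries started 17 mitochondrial ribosomal, 18 spliceosome, 11 RNA polymerase and Mediator and 21 chaperone genes. None of 37 aminoacyl-tRNA synthetases and none of 11 cohesin and CTCF factors started at a strongest boundary, while 6 and 3 started at other boundaries. Histone genes stood at 4 of 67, all at the single boundary at Hist1h4b, Hist1h4a, Hist1h3a and Hist1h1a, and 7 started at other boundaries.

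Among genes of the olfactory neuron, Fstl5, a secreted follistatin-like protein, was 1 of 25 mature neuron genes at a strongest boundary, at 2.81. Its gene extends into the right interval of 650 kb, and the left one measured 210 kb. Of 25 regulators of the olfactory lineage, Ebf3, a transcription factor of the Olf/Ebf family, started at a boundary of 2.5 with short flanks of 125 and 155 kb. Emx2, a homeobox factor known to be needed for odorant receptor expression in mice, started at a boundary of 2.33 between intervals of 205 and 315 kb. None of 13 immature neuron genes, 28 genes of other mucosal cells, 57 clustered protocadherins or 81 synaptic genes started at one. With 0.803% of all coding genes there, a count of 0 in sets this small says little. At other boundaries started 3 mature neuron, 3 regulator, 2 immature neuron, 5 other mucosal, 0 protocadherin and 12 synaptic genes. Of 218 ion channel genes only Grik4, a kainate receptor subunit, did (1.83) by the GENCODE starts, which put Trpm8 29.8 kb from its boundary. Of 321 solute carriers, the bile acid transporter Slc10a1 (2.17) and the nucleoside transporter Slc28a3 (1.94) did. Zinc finger genes named Zfp stood at 4 of 385, led by Zfp984 (2.98), where 48.6% of 32-base words were unique. Cytochrome P450 genes stood at 2 of 100, Cyp2f2 (2.25) and Cyp2d26 (1.83). The other boundaries held starts of 13 ion channel, 36 solute carrier, 31 Zfp and 9 cytochrome P450 genes.

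Odorant receptor genes, which lie in large clusters, had 12 of 1128 members at 9 strongest boundaries (1.06%) and 55 at other boundaries (4.88%). Of receptor genes at any autosomal boundary 17.9% were at a strongest one, against 6.09% of all coding genes. None of 327 vomeronasal receptor genes started at a strongest boundary, and 18 did at others. All 9 receptor boundaries are given here, chosen after their values were seen. Several had receptor genes mostly on 1 side within 500 kb, which was not compared with other boundaries. The Olfr1423 boundary (2.84) had 4 receptor genes on its left and 18 on its right, and the Olfr220 boundary (2.78) had 13 on its left and 0 on its right. At Olfr543 and Olfr544 (2.53) there was 1 on the left and 31 on the right, and at Olfr411 and Olfr412 (2.15) 15 on the left and 1 on the right. The Olfr279 boundary (2.07) had 9 and 0, the Olfr1513 boundary (1.92) 1 and 7, and the Olfr467 boundary (1.85) 0 and 20. At Olfr1392 and Olfr10 (2.03) the counts were 6 and 13, and at Olfr267 (2.35) they were 1 and 0.

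A CTCF core lay in the window of 128 strongest boundaries (34.8%) and 1595 others (24.1%), against 24.6% of all. The difference was 10.7 points (5.91 to 15.8), with the same direction on 16 of 19 autosomes. Against the other strong boundaries, at 30.3%, it was 4.51 points (-0.419 to 9.73), and without the added 10 kb it was 1.27 points (-1.10 to 4.49). The reversed, not complemented pattern, which has the core's base composition, lay at 1 strongest boundary (0.272%) and 33 others (0.498%). It had 335 matches on the autosomes against 12245 for the core, too few to compare the sets. At least 2 cores lay in 27 windows of the strongest (7.34%) and 4.47% of the others, against 4.62% of all (difference 2.87, 0.563 to 6.03). Against the other strong boundaries, at 5.72%, this difference was 1.615 (-0.773 to 4.82). The Plcg2 boundary, named for a phospholipase of immune signalling, had 3 cores. Neither a coding TSS nor a CTCF core lay in the window of 155 strongest boundaries (42.1%) and 3612 others (54.5%), against 53.9% of all (difference -12.4, -17.5 to -7.15). Against the other strong boundaries, at 45.5%, the difference was -3.43 (-8.63 to 1.93).

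Within 50 kb of the midpoint, 275 of 427 cores (64.4%) pointed away from the strongest boundaries and 3612 of 5544 (65.2%) from the others. The difference was -0.749 points (-5.56 to 3.82), so an orientation difference between the sets was not shown.

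Gene density around the boundaries was compared next. The number of coding TSSs 10 to 500 kb from the midpoint, both sides summed, had a median of 7.5 at the strongest boundaries and 7 at the others. The mean difference per autosome was 0.466 (95% interval -0.699 to 1.63), and it was -0.652 (-1.79 to 0.487) against the other strong boundaries. Among boundaries with 0 to 5 flanking TSSs, 26.5% of the strongest and 11.8% of the others had a coding TSS in the window, a difference of 14.7 points (7.43 to 23.4). Among those with 6 to 11 the difference was 4.81 (-2.91 to 13.4), and with 12 to 70 it was -5.10 (-14.1 to 4.11). For CTCF cores the differences were 16.6 (8.70 to 25.7), 12.8 (4.65 to 21.6) and -0.328 (-8.25 to 8.73) points.

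Counted 10 to 500 kb from the midpoint, coding genes were more unequally divided between the sides of the strongest boundaries than between those of the others. The share with no coding TSS in exactly 1 of the adjoining intervals, given below, went the other way. An asymmetry index was computed as the difference between the sides' TSS counts, 10 to 500 kb from the midpoint, over their sum plus 1. It averaged 0.485 ± 0.0707 per autosome at the strongest boundaries and 0.345 ± 0.0211 at the others (SD, 19 autosomes). The mean difference was 0.140 (95% interval 0.109 to 0.172), and it was positive on 18 of 19 autosomes. On chromosome 18 the averages were 0.338 and 0.339. Against the other strong boundaries the difference was 0.122. The richer side had a median of 6 coding TSSs at the strongest boundaries and 5 at the others, and the poorer side 1 and 2. At least 5 TSSs on 1 side with 1 or 0 on the other, a cutoff chosen after the data were seen, occurred at 97 strongest boundaries (26.4%) and 720 others (10.9%), against 11.7% of all. That difference was 15.5 points (11.2 to 20.3), positive on 19 of 19 autosomes, and 13 points (8.58 to 17.8) against the other strong boundaries.

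**Figure D3:**
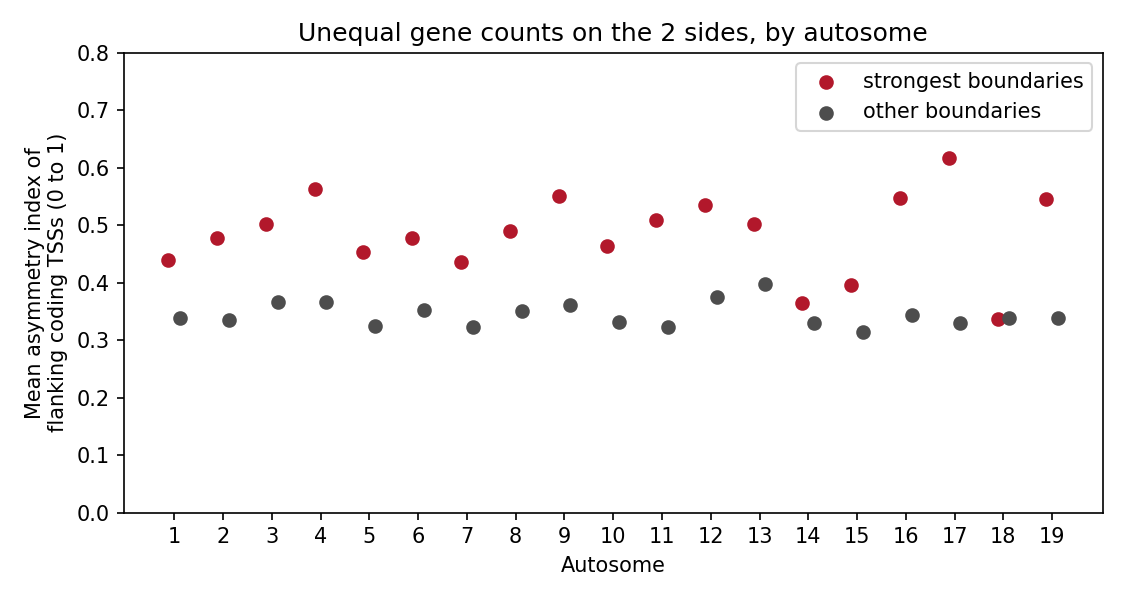
Mean asymmetry index of flanking coding start sites (vertical axis, 0 for equal sides) on each autosome (horizontal axis), for the strongest boundaries (red) and the other boundaries (grey). The strongest boundaries averaged higher on 18 of 19 autosomes, and chromosome 18 had 0.338 and 0.339.

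The most unequal flanks were found at named genes. Beside Plpp2, a lipid phosphatase gene on chromosome 10, there were 6 TSSs on the left and 35 on the right, and the left side had 39.2% GC against 53.1% on the right. The boundary inside Atp23, a mitochondrial protease gene, had 0 and 28, and the boundary nearest Slc4a3, an anion exchanger gene, had 26 and 0. At the histone genes beside Trim38 the counts were 31 and 7. The boundary at Tmem115, a Golgi protein gene, had 6 and 29 and lay inside the calcium channel gene Cacna2d2.

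The sides also differed in base composition, a comparison added after the data were seen. The absolute difference in GC content between the sides had a median of 1.89 percentage points at the strongest boundaries and 1.30 at the others. The mean difference per autosome was 0.770 points (95% interval 0.524 to 1.02), positive on 19 of 19 autosomes. Among boundaries with at least 80% unique sequence it was smaller, 0.489 points (0.208 to 0.769). The GC-richer side averaged 6.52 coding TSSs and the GC-poorer side 4.57 at the strongest boundaries, a ratio of 1.43. At the others the averages were 5.84 and 4.72, a ratio of 1.24. Where counts were unequal, the side with more TSSs was the GC-richer one at 227 of 341 strongest boundaries (66.6%) and 62.1% of others (difference 4.50, -0.825 to 9.46).

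**Figure D4:**
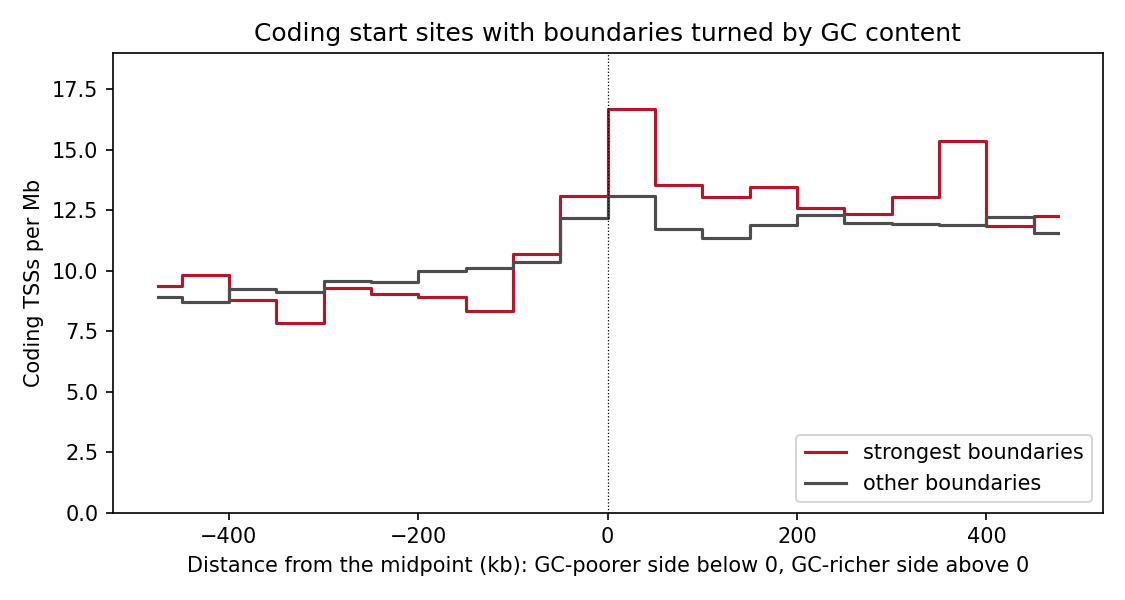
Coding start sites per Mb (vertical axis) by distance from the midpoint in kb (horizontal axis, steps of 50 kb), with each boundary turned so that its GC-richer side is at positive distances, for the strongest (red) and other boundaries (grey). Over 10 to 500 kb the GC-richer side of the strongest boundaries averaged 6.52 start sites and the GC-poorer side 4.57.

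The intervals to the next boundary on each side come from the map that gave the strengths, so their lengths are a description. Of the strongest boundaries, 360 had a boundary on both sides on the same chromosome. Intervals that cross an assembly gap were not left out. Their shorter interval had a median of 215 kb (quartiles 170 and 300), against 200 kb (150 and 275) at the others. The longer interval had a median of 422.5 kb (320 and 630), against 350 kb (250 and 535), and the sum 675 kb against 560 kb. The longer interval over the shorter had a median ratio of 1.84, against 1.61, and it reached 3 at 74 strongest boundaries (20.6%) and 903 others (13.7%). The longer side was also poorer in genes. It held 6.81 coding TSSs per Mb and the shorter side 14.3 at the strongest boundaries, against 7.61 and 10.3 at the others. It was the GC-poorer side at 231 of 356 strongest boundaries (64.9%) and 56.0% of the others.

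**Figure D5:**
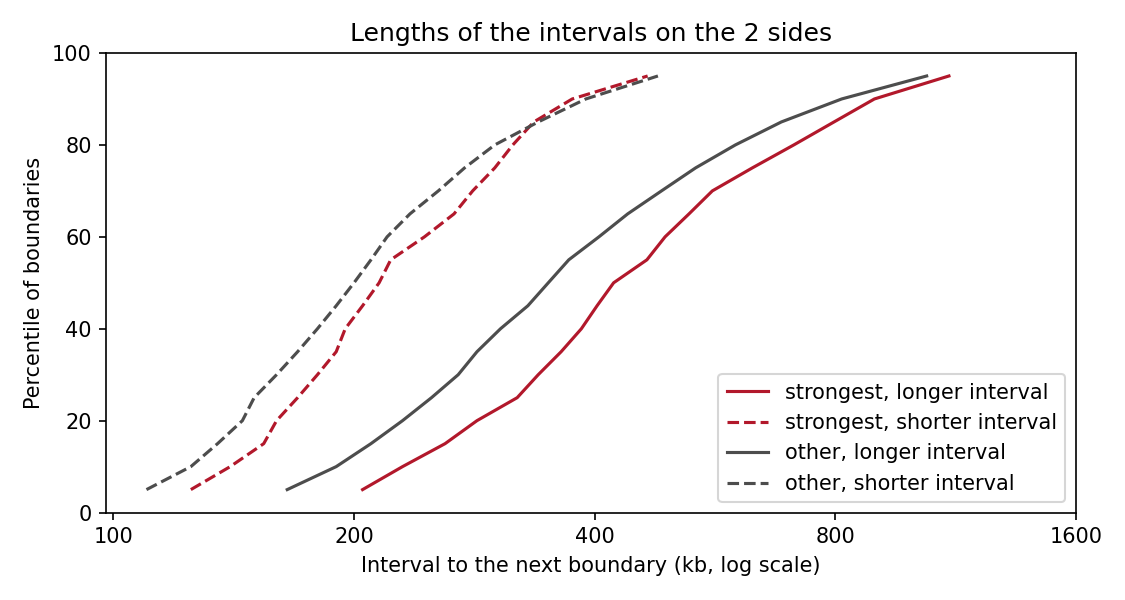
Percentile of boundaries (vertical axis) by the length of the interval to the next boundary in kb (horizontal axis, log scale), for the longer (solid) and shorter (dashed) interval at the strongest (red) and other boundaries (grey). The longer intervals had medians of 422.5 and 350 kb and the shorter ones 215 and 200 kb.

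Single boundaries spanned a wide range. The boundary nearest Hpcal1, a neuronal calcium sensor gene, had intervals of 155 and 3020 kb, a ratio of 19.5, in sequence of which 43.1% was unique. Beside Clec4a1, a C-type lectin gene, the intervals were 115 and 1475 kb, and beside Yipf7 they were 1440 and 120 kb. Nxt1, an RNA export gene, had 1275 and 135 kb, and Gm10358 had 195 and 1815 kb. The longest sum, 3405 kb, lay around the boundary nearest Gramd1a, a sterol transfer gene. Olfr1513, in an odorant receptor cluster on chromosome 14, had a sum of 2005 kb and Crxos 1880 kb. The shortest sums were 230 kb nearest 4930486L24Rik, 240 kb nearest Ypel5, 260 kb at Rps3, 280 kb at Ebf3 and 290 kb at Reck, an inhibitor of metalloproteases.

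Neighbouring strongest boundaries on an autosome lay a median of 5010 kb apart (quartiles 2995 and 8440, 349 spacings), with a range of 160 to 33540 kb. They were rarely next to each other in the list. Of 728 places beside a strongest boundary 6 were held by another (0.824%), whereas strongest boundaries held 722 of the 13222 places beside other boundaries (5.46%). The 3 such pairs were 160, 205 and 220 kb apart. The closest pair had Adam7 and Adam28, both metalloprotease family genes, as nearest start sites. The pair 205 kb apart was nearest Stard6 and Mbd2, and the pair 220 kb apart lay at Etfdh and Tmem144. The next pairs, each with 1 boundary between, lay 430 kb apart at Suds3 and Ksr2 and 445 kb apart at Lysmd4 and Ttc23. The mean strength of the neighbours had a median of 0.556 at the strongest boundaries, against 0.683 at the others. Strong-class boundaries stood on both sides of 73 strongest boundaries (19.8%) and 33.3% of the others.

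Some properties of the sequence differed between the sets, and their part in the results above was not tested except where a value is given. Soft-masked repeats made up a median of 33.1% of the 20 kb around the strongest boundaries and 30.1% around the others, and 87.8% and 89.5% of 32-base words within 50 kb were unique. GC content in the same 20 kb was 43.4% and 43.2%. The absolute difference in soft-masked share between the sides, 10 to 500 kb from the midpoint, had medians of 6.01 and 4.30 percentage points. Its mean was higher at the strongest boundaries on 19 of 19 autosomes. An assembly gap or chromosome end lay within 500 kb of 22 strongest boundaries (5.98%) and 3.58% of the others. Among boundaries with at least 80% unique sequence the asymmetry difference was 0.137 and the difference for deserts -9.12 points (-9.98 to -7.29).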

How the data were processed

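The authors called boundaries on 1 contact matrix combined from both replicates, per the series' design text, and the build was GRCm38, per the submitters' processing notes. The deposited value is a strength score. Its scale, the caller, the window and the aligner are not stated in the labels or files used here. No replicate could be separated, and the depth is unknown. Scores were used only within the list. Boundaries were joined to GENCODE gene models on GRCm38, taking the 5′ end of each of 20807 autosomal coding genes as its TSS, and CTCF core matches and unique 32-base words were found in the reference sequence, which is of another strain. Shares carry 95% Wilson intervals, their differences Newcombe intervals, and autosome means Student intervals over 19 autosomes. The interval functions and counts were tested on simulated data. Python 3.11.15, numpy 2.4.6, pandas 2.3.3 and scipy 1.17.1 were used.

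Members, gene lists and comparisons were chosen with earlier results of these data known. Named genes were the nearest TSS of the 30 strongest members, up to 4 per class, divergent pairs, the extremes of interval and TSS inequality and of summed length, the closest pairs and those beside the threshold. Exceptions are stated where they occur. Gene classes numbered 26 and were taken from gene symbols. Boundaries on chromosome 18 were left out when sequences were chosen for display.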

Additional observations from a re-analysis of the deposited data

How the results depend on the processing

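Of 73 alternatives, 54 kept their direction and whether the interval left out 0, 7 kept the direction but no longer left out 0, 8 turned the direction and 4 moved a descriptive value. The share difference for coding TSSs turned to -3.03 points without the added 10 kb and to -5.10 at the highest flanking TSS density. It was 5.0 at a threshold of 2.2, 1.11 against the other strong boundaries, 2.71 with the 5′ ends of all transcripts and 4.81 at middle density, with intervals that include 0, and 14.9 with 25 kb added. The CTCF difference turned to -0.328 at the highest density. The reversed pattern, also counted as turned, gave -0.226 but had too few matches to compare the sets. The CTCF difference was 1.27 without the added 10 kb, 6.37 at a threshold of 2.2 and 4.51 against the other strong boundaries. The difference for any gene start was -2.15 without the added 10 kb and 13.6 with 25 kb. Where the interval already included 0, the divergent share turned to 0.136 without the added 10 kb. Flanking TSS density turned to -0.652 against the other strong boundaries and to -0.0081 without receptor genes. The cause of these changes was not tested. Against a ratio of medians of 1.21, summed intervals gave 1.27 at a threshold of 2.2 and 1.38 to the next strong boundary. The interval asymmetry ratio of 1.14 became 1.05 at a threshold of 1.5 and 1.26 to the next strong boundary. The gene body, desert and flanking asymmetry differences kept direction and an interval without 0 in the alternatives run, though asymmetry was 0.0905 over 10 to 1000 kb and the GC difference between sides 0.489 in unique sequence. All gene body and desert alternatives were chosen after seeing the data, as were those for asymmetry other than the strong class and the other distances. No paired analysis was possible because both replicates were pooled in 1 list, so no replicate could be left out, and depth is unknown.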
